A study of Mus musculus with 139 samples.

Results

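The subject is the set of named H/ACA box small nucleolar RNAs (snoRNAs) of the mouse, taken as every row of the count table that is classed as snoRNA and whose name starts with Snora. There were 42 such rows among 6114 small RNA genes and among 1507 rows of class snoRNA. Of the 42, 22 had at least 1 count and 20 were listed at 0 in all 134 libraries. The rule uses names and class, not measured values. The study profiled small RNA in 11 tissues of 14 wild-type C57BL/6J mice, an inbred laboratory strain, aged 3 months and untreated. Libraries were run in 3 pools: N467 (kidney, liver, lung, pancreas and spleen of the female animals 1 to 10), N469 (bone marrow, brain, heart, intestine and muscle of the same animals) and N541 (these 10 tissues of the male animals 11 to 14). Sex, animal set and pool therefore fall together within each tissue and cannot be told apart. An animal gave at most 1 analysed library per tissue, and 2 to 10 animals are behind each tissue of a pool, so the spread between libraries of a tissue is a spread between animals.

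H/ACA box snoRNAs fold into a pair of hairpins, each followed by a single-stranded box, the H box in the hinge and the ACA box near the 3′ end. They bind dyskerin and its partner proteins, and most guide the change of uridine to pseudouridine in ribosomal RNA by base pairing in a loop of each hairpin. The U17 RNAs, Snora73a and Snora73b here, act instead in the cleavage of the ribosomal RNA precursor. Nearly all lie in introns of host genes and are trimmed out of the spliced intron. The C/D box snoRNAs, named Snord, are the other large class and guide 2′-O-methylation.

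The following sequences are shown to make clear which RNAs the results turn on and what defines them. They are the GENCODE transcripts on GRCm38, the build of the submitters' processing, 5′ to 3′ in lower case. Capitals mark the H box (a match to ANANNA near the middle of the RNA) and the ACA box (ACA within the last 10 bases). The first 4 had the largest counts, the next pair are the near-identical U17 genes, Snora35 is the one with counts in few tissues, and Snora24 stands for the rows at 0.
Snora41: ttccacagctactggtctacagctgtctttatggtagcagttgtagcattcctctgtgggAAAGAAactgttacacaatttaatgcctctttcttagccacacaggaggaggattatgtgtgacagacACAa
Snora17: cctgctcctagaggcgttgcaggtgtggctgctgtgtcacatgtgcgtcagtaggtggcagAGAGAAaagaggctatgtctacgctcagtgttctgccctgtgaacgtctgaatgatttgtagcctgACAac
Snora21: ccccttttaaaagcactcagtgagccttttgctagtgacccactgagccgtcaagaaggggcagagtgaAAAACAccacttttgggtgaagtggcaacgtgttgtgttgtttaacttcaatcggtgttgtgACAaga
Snora31: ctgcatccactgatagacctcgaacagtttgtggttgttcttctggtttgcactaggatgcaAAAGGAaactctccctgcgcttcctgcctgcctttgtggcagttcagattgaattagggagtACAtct
Snora73a: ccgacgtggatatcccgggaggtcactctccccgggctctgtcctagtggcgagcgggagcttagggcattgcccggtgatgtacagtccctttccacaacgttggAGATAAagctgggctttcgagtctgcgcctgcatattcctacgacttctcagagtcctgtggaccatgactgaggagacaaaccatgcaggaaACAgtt
Snora73b: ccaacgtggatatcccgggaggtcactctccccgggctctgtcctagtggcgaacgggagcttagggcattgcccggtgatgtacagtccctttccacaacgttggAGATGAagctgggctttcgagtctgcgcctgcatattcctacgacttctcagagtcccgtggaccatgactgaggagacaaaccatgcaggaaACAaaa
Snora35: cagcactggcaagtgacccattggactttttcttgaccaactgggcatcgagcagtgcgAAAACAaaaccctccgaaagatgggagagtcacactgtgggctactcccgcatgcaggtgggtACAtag
Snora24: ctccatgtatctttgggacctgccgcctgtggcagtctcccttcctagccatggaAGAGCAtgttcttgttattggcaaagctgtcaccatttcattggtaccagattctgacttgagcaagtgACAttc

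In GRCm38 coordinates these genes lie at chr1:63179004-63179135 on the plus strand (Snora41), chr2:26639190-26639321 on the minus strand (Snora17), chr11:97781639-97781775 on the minus strand (Snora21) and chr14:75847905-75848034 on the plus strand (Snora31). Snora73a lies at chr4:132352775-132352979 and Snora73b at chr4:132352322-132352526, both on the minus strand within Snhg3. Snora35 lies at chrX:146994381-146994508 on the plus strand and Snora24 at chr3:123507937-123508066 on the minus strand. Snora41 lies in an intron of Eef1b2 (a translation elongation factor), Snora21 in one of Rpl23 (a ribosomal protein gene), Snora31 in one of Tpt1, and Snora35 in one of Htr2c (a serotonin receptor). Snora17 had no host gene on its strand in this annotation. Snora73a and Snora73b differ at 7 of 205 aligned bases (96.59% identity), so reads from their shared stretches could be credited to either.

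The box letters matched the names. An ACA in the last 10 bases was found in 40 of the 42 Snora genes (95.24%), against 8 of 99 Snord genes (8.081%) and 48.72% of the 1367 other snoRNA genes, most of which carry only a model number. An H box match in this middle window was present in 37 of 42 Snora genes (88.1%), but also in 40.4% of Snord genes. The C box letters TGATGA in the first 15 bases were found in 0 of 42 Snora genes and in 64.65% of Snord genes. Snora genes were 121 to 205 bases long with a median of 132.5, and Snord genes had a median of 84. Only the given strand was searched, and a match is a description of letters.

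The libraries held 10255 to 34095704 counts (median 6327550), and 8 had fewer than 100000, most of them pancreas. The Snora rows together had 93971 of 1076445095 counts, or 87.3 CPM (counts per 1000000 counts of the library). The libraries were size-selected between 135 and 210 bp with adapters included and read for 75 bases, so an insert is shorter than a whole H/ACA RNA and the counts come from fragments of them. In the 10 organs other than testis, each tissue's own microRNA markers had their highest median, taken over all pools together, in that tissue. The exceptions are the 3 libraries labelled testis, in which the X-linked testis microRNA cluster was near 0 and its highest median was in heart. Each is 1 of 2 testis samples listed under the same name, and which of them the table holds is not known, so their pool was assumed to be N541. The library labelled Pancreas 11, with 10255 counts and 1 Snora count, held many counts of the intestine marker Mir215, which was at or near 0 in every other pancreas library, and few of the pancreas markers Mir216a and Mir217, which goes against its label.

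Whether a Snora row had any count followed its overlap with other annotated genes. Of the 20 rows at 0, 19 were covered to at least 90% by an exon of another gene on the same strand. The remaining row is the other of 2 overlapping annotations of Snora43. Of the 22 rows with counts, 18 had no such overlap, 3 were covered in part (Snora73a to 77.56%, Snora15 to 77.86%, Snora2b to 67.15%) and 1, Snora74a, was covered whole. Of the C/D box rows, 37 of 53 at 0 were covered to at least 90%, and 0 of 45 with counts. The other C/D box rows at 0 include 14 with no overlap of any kind, against 0 such Snora rows. Rows at 0 include Snora64, Snora65, Snora70, Snora7a and Snora28, whose hosts are Rps2, Rpl12, Rpl10, Rpl32 and Eif5. Of the 11 Snora genes within ribosomal protein genes, 8 were at 0. So were 7 of 11 with a non-coding host, 4 of 16 with another protein-coding host and 1 of 4 with no host on the same strand. How reads in such overlaps were treated is not given in the sources used here, and its part in the zeros was not tested, so a 0 in these rows cannot be read as absence of the RNA.

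**Figure D1:**
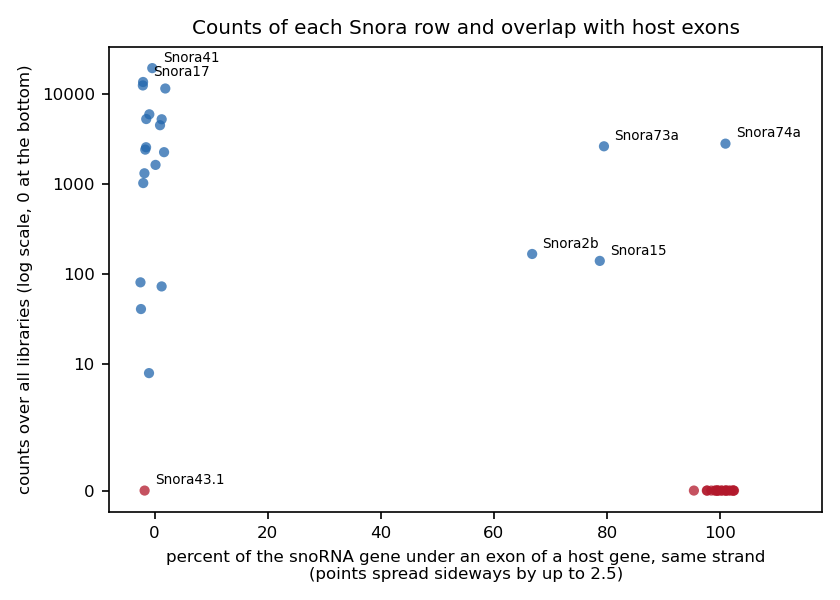
Counts over all 134 libraries (vertical axis, log scale with 0 at the bottom) against the percent of each snoRNA gene that lies under an exon of a host gene on the same strand (horizontal axis), 1 point per Snora row. Of the 20 rows at 0 (red), 19 sit at 90% or more, and 18 of the 22 counted rows (blue) sit at 0%.

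Shorter RNA genes lie inside some members and draw counts of their own. Mir664, nested in Snora36b, had 42854 counts where Snora36b had 81. Mir1291, nested in Snora34, had 4323 against 1019 for Snora34, and Mir3084.1 had 3932 where Snora19 had 41. In these 3 pairs the counts of the fragment annotated as a microRNA exceeded those of the snoRNA that holds it. How reads in the shared stretch were credited is not given in the sources used here, so the levels of Snora19, Snora34 and Snora36b are uncertain. So is that of Snora74a (U19), of which 48.98% lies under Gm49347, a row with 1835 counts against 2785.

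Among the 22 counted rows, a few members carried most of the signal. Snora41 had 19120 counts, Snora17 had 13424, Snora21 had 12286 and Snora31 had 11371, together 59.8% of all Snora counts. Snora62 (5889), Snora73b (5218), Snora69 (5188) and Snora78 (4456) brought the share to 81.9%. The 16 rows with at least 1000 counts held 99.5%, and the other 6 (Snora2b, Snora15, Snora36b, Snora35, Snora19 and Snora43) had 8 to 167 counts each. Per kilobase of gene the order of the first 4 was kept, with 144800 counts for Snora41, 101700 for Snora17, 89680 for Snora21 and 87470 for Snora31. Near-identical copies named only by model number exist for Snora41, Snora21, Snora30, Snora57 and Snora19, and their rows could share reads with them.

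The summed Snora level was highest in the blood-forming tissues of each animal set. In pool N467, the 10 spleen libraries ran from 175 to 425 CPM with a median of 266. The pancreas median was 120.0 (43.3 to 207, n = 9), the liver median 88.7 (22.2 to 136, n = 9), the lung median 67.9 (32.7 to 101, n = 9) and the kidney median 25.7 (18.5 to 42.7, n = 10). Neighbouring tissues in this order overlapped in every case, spleen with pancreas included. In pool N469, bone marrow had a median of 187 (89.996 to 249, n = 9), brain 70.9 (27.0 to 149, n = 10) and intestine 69.2 (46.3 to 132, n = 10). Heart followed at 47.1 (39.4 to 60.3, n = 9) and muscle at 32.4 (12.7 to 61.7, n = 10), and each of these neighbours overlapped too.

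In pool N541, where 10 tissues can be set side by side, the order was similar at its ends. Bone marrow led with 93.9, 132 and 232 CPM, and spleen followed with a median of 113 (97.9 to 137, n = 4). Kidney was lowest at a median of 12.2 (5.56 to 16.6, n = 4), below muscle at 28.6 (19.4 to 37.7, n = 4) with no overlap. The pancreas value of this pool, a median of 106, rests on 1 to 7 Snora counts per library, and 1 brain library with 17201 counts in all had 0 Snora counts, which allows up to 174 CPM. The 3 libraries labelled testis had 77.3, 68.3 and 62.8 CPM. A sum over the members was given no test.

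**Figure D2:**
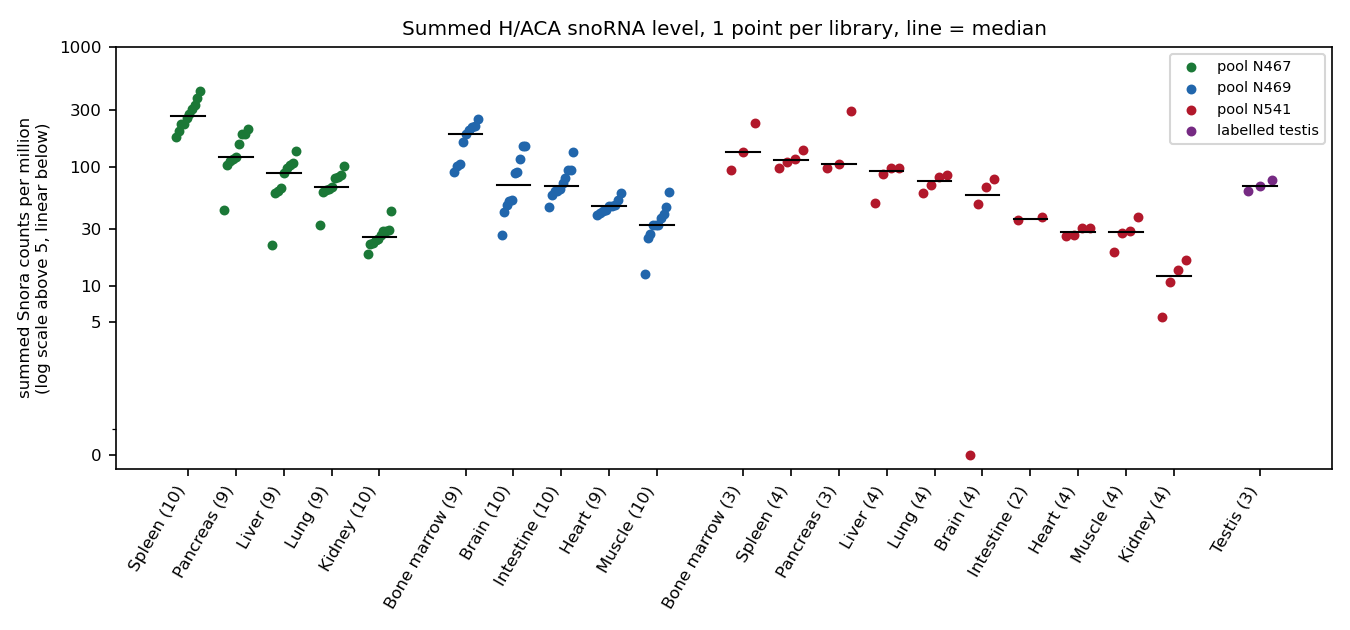
Summed Snora level in CPM (log scale above 5, linear below) for each library, grouped by pool and tissue with the number of libraries in parentheses, and a line at the median. Spleen (median 266) and bone marrow (187) lead pools N467 and N469, and kidney is lowest in N467 and N541.

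Against the C/D box sum the H/ACA sum was small and the ratio differed between pools. For each 1000 Snord counts there was a median of 4.96 Snora counts in pool N467 (1.28 to 7.85), 7.45 in N469 (3.42 to 67.4) and 0.843 in N541 (0 to 18.9). The libraries labelled testis had 0.339, 0.274 and 0.267. The Snord sum here takes rows of class snoRNA and so leaves out Snord43, which the table classes as microRNA. Within N467 the tissue medians ran from 3.85 in liver to 6.77 in lung, while the Snora sum itself ranged from 25.7 CPM in kidney to 266 in spleen. The C/D box sum ranged alongside, from a median of 4399 CPM in kidney to 49486 in spleen, where every spleen library was above every library of the other 4 tissues. With Snord43 added, the ratio ran from 1.86 in pancreas (4.29 without it) to 5.89 in lung, and the Snord sum of pancreas (21775 to 100096 CPM) overlapped with that of spleen (44958 to 99636).

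The lower ratio in N541 came mainly with a higher Snord sum in muscle, lung and bone marrow. In muscle the Snord median was 20.3 times that of N469 and the Snora median 0.882 times. In lung the factors were 15.1 for Snord and 1.12 for Snora, and in bone marrow 13.1 and 0.705. In spleen both sums differed, with factors of 3.68 for Snord and 0.426 for Snora. The Snord sum was not higher in kidney (0.460, and 0.476 for Snora), pancreas (0.690 and 0.880) or intestine (0.967 and 0.532). In N541 Snord49a alone held 36.5% of the counts on Snord rows, with Snord43 (22.9%, a row the table classes as microRNA) and Snord55 (18.7%) next. Across the 10 tissues the Snora factor ran from 0.426 in spleen to 1.12 in lung. Sex, animals and pool differ together here, and their parts cannot be told apart.

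In N469 the intestine had the highest median of this ratio, at 16.7 (8.13 to 67.4). The other 4 tissues had medians of 6.43 to 7.43, but bone marrow (up to 14.9), brain (up to 14.8) and heart (up to 9.42) overlapped with intestine. The intestine Snora sum was ordinary (69.2 CPM) while its Snord sum was the lowest of the pool (4419 CPM). Its share of tRNA counts ran from 5.46% to 92.7% with a median of 47.8%, against medians of 3.51% to 17.1% in the others. What part the tRNA share has in this was not tested.

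**Figure D3:**
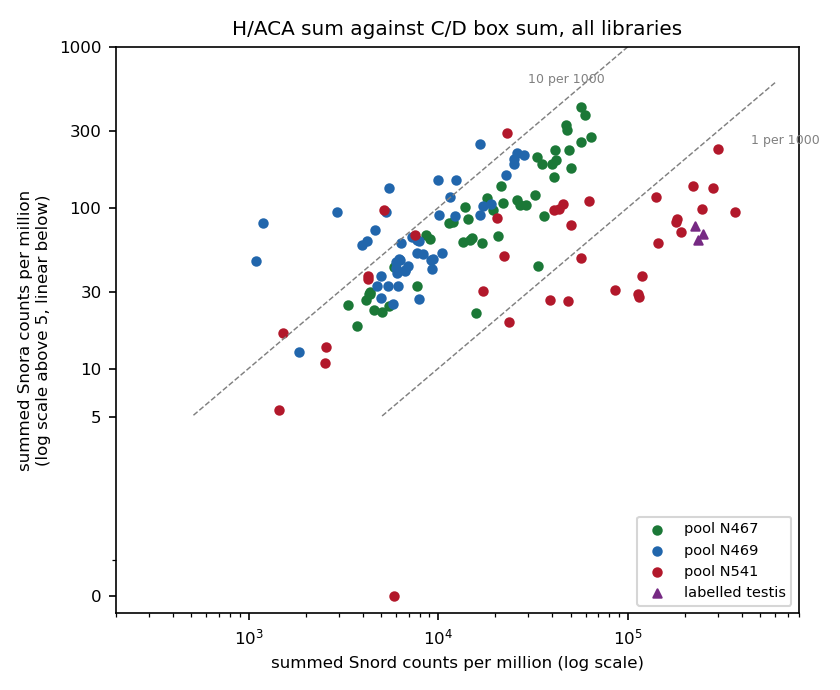
Summed Snora against summed Snord level, both in CPM, 1 point per library and coloured by pool (log axes, the vertical one linear below 5). Dashed lines mark 10 and 1 Snora counts per 1000 Snord counts. Most N467 and N469 libraries lie between the lines near the upper one, and most deep-Snord N541 libraries and the 3 labelled testis lie below the lower one.

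Member by member, the test asked which Snora rows differed among tissues within a pool. Counts of all genes that passed a filter on low counts were fitted with edgeR's quasi-likelihood test, and p-values were adjusted by Benjamini-Hochberg over all of them. In N467, 16 of the 42 members passed the filter and 15 of the 16 differed among the 5 tissues, against 92.4% of the 906 genes tested. In N469, 13 of 14 differed (97.3% of 990 genes), and in N541, 11 of 11 (98.2% of 932 genes). These shares are near those of all genes. The smallest p in both N467 and N469 was that of Snora73a (adjusted p = 5.51e-11 and 1.20e-11). The exceptions were Snora31 in N467 (adjusted p = 0.323) and Snora34 in N469 (adjusted p = 0.291), both by the same edgeR test. Members that did not pass the filter are not shown to be alike in all tissues.

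**Figure D4:**
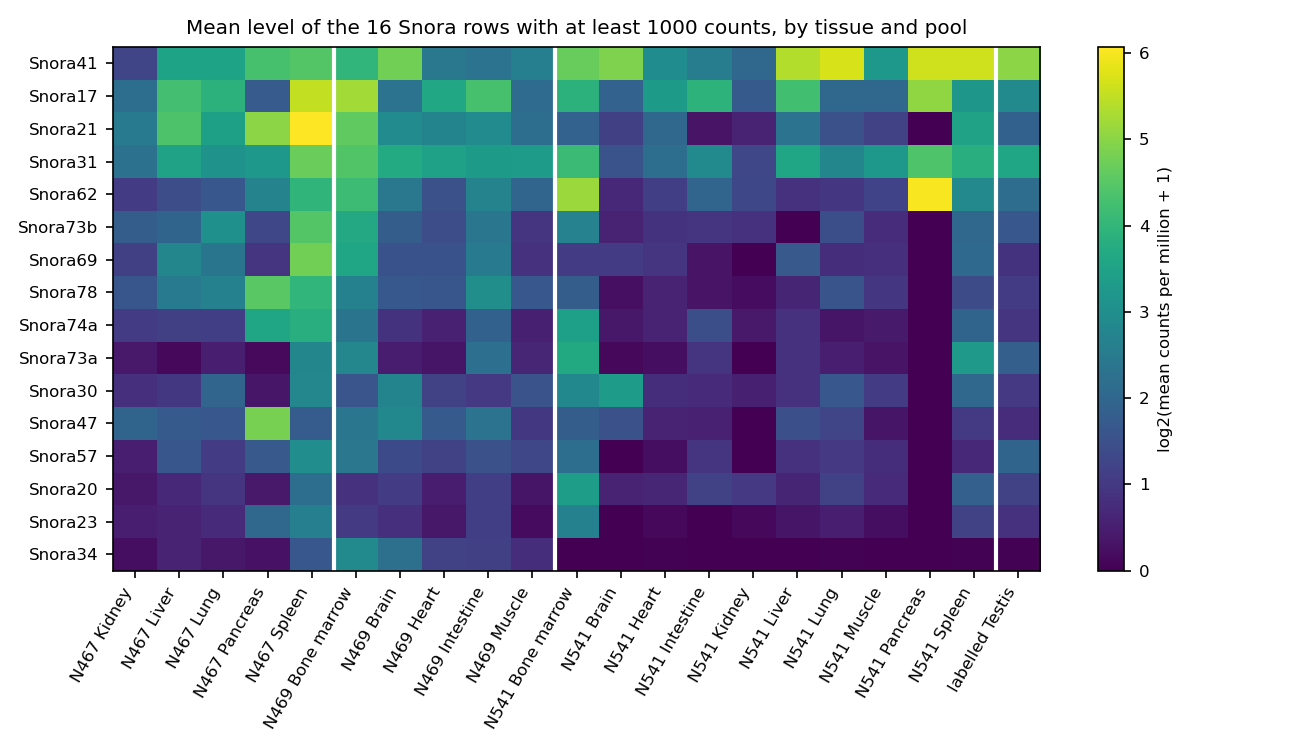
Mean level of the 16 Snora rows with at least 1000 counts (rows, ordered by total counts) in each tissue and pool (columns, white lines between pools), as log2 of mean CPM plus 1. Spleen in N467 and bone marrow in N469 and N541 are bright for most rows. Snora41 is bright in brain (means of 26.5 CPM in N469 and 28.6 in N541). It is brighter in N541 lung (50.9), spleen (48.6) and liver (40.5), and in the libraries labelled testis (31.4). The N541 pancreas column rests on 1 to 7 Snora counts per library. It is bright for Snora41, Snora17, Snora31 and Snora62 and at 0 in the other rows.

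Each tissue was then compared with the mean of the other 4 in its pool. A member was called at an adjusted p below 0.05 with a log2 fold change of at least 1 in size. The scaling is that of edgeR (TMM), which takes most genes to be alike. Yet most genes tested differed among the tissues of each pool, as given above. The TMM factors ran from 0.294 to 2.73 in N467 and from 0.229 to 2.68 in N469. Over the 10 tissues there were 57 calls. Of these, 54 kept their sign and 23 their call when libraries were scaled by DESeq2 size factors, by unscaled totals and by their own Snord total as well. The like shares over the calls of all genes are not given. Unscaled totals moved the median of all genes by between -1.35 (kidney) and 1.30 (spleen) on the log2 scale, and the Snord total by between -0.76 (bone marrow) and 1.06 (kidney) in these 10 contrasts.

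Spleen had the most calls. Of 16 members tested, 11 were higher in spleen, 1 was lower and 4 were not called, beside 24.1% of all genes called higher and 20.3% lower. The median log2 fold change of the 16 was 1.20, against 0.05 for all genes tested. C/D box rows moved alongside, with 20 of 41 higher and 1 lower, and 3 of 8 Cajal body (Scarna) rows were higher and 1 lower. Over the libraries of all pools together, erythroid microRNAs (Mir451a and Mir144) had a summed median of 4344 CPM in spleen and 26325 in bone marrow. The medians were 348 in muscle and 2148 in kidney, and the part of these microRNAs in the spleen differences was not tested. With the Snord total as library size, 4 of the 11 remained: Snora73a, Snora74a, Snora57 and Snora69. With the animal as a block, Snora21 in spleen (0.99) was no longer past the fold required. In bulk tissue, more cells of 1 kind and more RNA per cell cannot be told apart.

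Spleen and the other tissues of N467 did not overlap for the U17 RNA Snora73a. Its 10 spleen libraries ran from 3.30 to 16.2 CPM (median 4.49), while the highest of the 37 other libraries of the pool had 1.04. Among the Snora rows it was the only one in N467 for which every library of a tissue exceeded all others. The share of all genes that separate a tissue in this way is not given, so this is not shown to be unusual. Its log2 fold change was 2.95 ± 0.32 (SE, adjusted p = 3.57e-11, edgeR quasi-likelihood test), the mean being 5.86 CPM in spleen and 0.242 elsewhere. In animals 11 to 14 its spleen values were 1.89, 4.19, 5.49 and 23.1 CPM, with a log2 fold change of 5.64 over the same 5 tissues. The kidney and pancreas libraries of these animals had 0 counts of Snora73a, so the size of that fold change is uncertain. Snora73b, its near-identical neighbour in Snhg3, ran from 5.67 to 49.2 CPM in spleen and overlapped with lung (1.04 to 18.2). Its log2 fold change was 1.10 ± 0.37 (adjusted p = 0.00929, edgeR), and 0.58 with the Snord total as library size, where it was not called.

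Other spleen calls were spread over host classes. Snora69, in an intron of the ribosomal protein gene Rpl39, had 10.5 to 51.2 CPM in spleen (median 24.96) and 0 to 12.9 in liver, the ranges overlapping, for a log2 fold change of 1.83 ± 0.28 (adjusted p = 2.81e-07, edgeR). Snora57 had 3.78 to 11.8 CPM in spleen, and its log2 fold change was 1.66 ± 0.31. Snora62, known also as E2, had 7.39 to 25.2 CPM in spleen against 0.426 to 1.90 in kidney. Snora47, in an intron of the gene Zbed3, was the single member called lower in spleen (log2 fold change -2.08 ± 0.35, adjusted p = 2.24e-06, edgeR), although its spleen mean of 2.40 CPM stood near those of kidney (2.88) and liver (2.28). The other tissues' mean of 8.64 CPM was raised by pancreas, and the call was not made with unscaled totals (-0.84).

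Pancreas, the shallowest tissue, had 3 members higher and 4 lower (19.4% and 29.4% of all genes). Snora47 had a median of 21.3 CPM there (0 to 93.6, n = 9), against 2.70 in kidney and 2.32 in spleen. The log2 fold change was 2.42 ± 0.39 (adjusted p = 9.16e-07, edgeR). Snora78, within the non-coding gene Snhg9, and Snora74a were also higher, at 1.32 and 1.72. Snora57, Snora30, Snora17 and Snora69 were lower. The 9 libraries held between 2 and 111 Snora counts each, so most single values are a few counts, and Snora57 was found there as 1 count in 1 library. Kidney had 0 members higher and 3 lower (24.6% and 11.0% of all genes): Snora41, Snora21 and Snora69. Snora41 had 0.662 to 2.92 CPM in kidney and 8.12 to 16.8 in lung, with no overlap between them, and a log2 fold change of -2.03 ± 0.31 against the other 4 tissues (adjusted p = 2.84e-07, edgeR). With the Snord total as library size the signs of Snora21 and Snora69 in kidney turned to 0.00 and 0.05, and with the animal as a block Snora69 was no longer called there (-0.98).

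Liver had 2 members higher, Snora57 (1.699) and Snora69 (1.08), and 2 lower, Snora73a (-1.98) and Snora74a (-1.76), on the log2 scale, beside 17.1% and 17.7% of all genes. Both higher members had a lower unscaled mean in liver than elsewhere, 2.10 against 2.66 CPM for Snora57 and 5.86 against 8.14 for Snora69. With the animal as a block, Snora69 (0.88) and Snora74a (-0.96) were no longer called in liver. Snora73a was at 0 in 7 of the 9 liver libraries, which hold 4 counts of it in all. Lung had 1 member higher (Snora30, an intronic RNA of the chromatin remodeller gene Srcap, 1.04) and 2 lower (Snora21, -1.04, and Snora74a, -1.37), beside 23.5% and 16.3%.

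Bone marrow, with spleen the other blood-forming tissue, had 6 of 14 members higher and 1 lower (23.8% and 30.6% of all genes), with a median log2 fold change of 0.97 against -0.35 for all genes. Snora73a again led. Its bone marrow libraries ran from 2.45 to 12.0 CPM (median 5.32) against at most 1.45 in brain, heart and muscle, but they overlapped with intestine (0.259 to 6.76). The log2 fold change was 1.84 ± 0.34 (adjusted p = 6.68e-06, edgeR). Snora73b (1.29), Snora62 (1.21), Snora69 (1.15), Snora74a (1.09) and Snora17 (1.06) were the others higher. With the Snord total as library size, Snora73a was the only one of the 6 still called. With the animal as a block, Snora74a in bone marrow (0.99) was no longer called.

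In N541, bone marrow was compared with 9 other tissues, and 7 of 11 members were higher and 0 lower (34.0% and 14.1% of all genes). Snora73a had 2.26, 9.09 and 24.6 CPM in the 3 libraries, with a log2 fold change of 5.10 ± 0.68 (adjusted p = 1.20e-07, edgeR). Snora62 had 12.4, 28.7 and 63.2 CPM, with 3.60 ± 0.33 (adjusted p = 2.72e-11, edgeR). Snora23, an intronic RNA of the nuclear import gene Ipo7, had 1.40, 7.24 and 7.53 CPM and a log2 fold change of 5.05 ± 0.65. Animal 11 was lowest and animal 14 highest for all 3 RNAs. In N541 Snora73a had 0 counts in kidney and pancreas, and Snora23 had 0 in brain, intestine and pancreas. The sizes of their fold changes in this pool are therefore uncertain. Snora74a (4.01), Snora20 (3.66), Snora73b (3.58) and Snora30 (2.60) completed the 7. Over the 5 tissues of N469 alone, 8 were higher and 0 lower (31.9% and 25.4%). Without the library labelled Pancreas 11, 9 members were called higher in bone marrow (Snora17 and Snora47 added), and in spleen 6 in place of 3 (Snora41, Snora23 and Snora74a added). Snora30 was called lower in bone marrow of animals 1 to 10 (-1.10 ± 0.25, adjusted p = 1.60e-04, edgeR, and 0.06 with unscaled totals), and higher over the same 5 tissues in animals 11 to 14 (1.94, adjusted p = 0.0018, edgeR).

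The other tissues of N541 had fewer calls among the 11 members. Spleen had 3 higher and 0 lower against the other 9 tissues (20.3% and 7.94% of all genes): Snora73a (4.21), Snora21 (2.70) and Snora73b (2.33). Over the tissues of N467 alone it had 2 higher and 0 lower (17.4% and 7.62%). Lung had 2 higher and 1 lower (30.5% and 5.47%). Snora41 had 49.4, 59.5, 55.1 and 39.7 CPM in lung, with a log2 fold change of 1.92 ± 0.33 (adjusted p = 7.37e-06, edgeR), but spleen had like values of 63.4, 37.6, 56.7 and 36.7 CPM. Snora73b was also higher in lung (2.28), a call lost without the library labelled Pancreas 11, and Snora62 was lower (-1.67). Against the N467 tissues alone, lung had 1 higher and 1 lower (26.2% and 6.76%).

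Brain in N541 had 0 higher and 3 lower (35.1% and 22.2%): Snora31 (-2.59), Snora62 (-2.16) and Snora17 (-1.76, lost without the library labelled Pancreas 11). Over the N469 tissues it had 0 higher and 4 lower (35.5% and 34.8%). Heart had 0 higher and 3 lower (20.1% and 6.22%): Snora62 (-1.72), Snora41 (-1.42) and Snora31 (-1.27), and 1 of each over the N469 tissues (20.7% and 12.3%). Liver had 2 higher and 0 lower (16.4% and 9.23%), Snora17 (1.73) and Snora41 (1.59), and 1 and 0 over the N467 tissues (11.8% and 7.51%). Intestine had 1 higher, Snora17 (1.57), and 0 lower (17.1% and 8.69%), and the same counts over the N469 tissues (18.5% and 17.5%). Muscle had 0 and 0 (29.5% and 8.15%), and 1 higher and 0 lower over the N469 tissues (24.1% and 13.3%). Kidney had 0 and 0 (15.9% and 14.6%), and 0 higher and 2 lower over the N467 tissues (14.2% and 13.7%). Pancreas had 1 higher and 0 lower (9.23% and 9.33%), the same counts over the N467 tissues (9.66% and 12.1%), and the call, Snora62 (4.18), rests on 0, 3 and 2 counts.

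In animals 1 to 10, brain had 2 members higher and 6 lower (35.8% and 31.5% of all genes), with a median of -0.93 against -0.03 for all genes. Snora41 was the most abundant member there, with 35.6% of the Snora counts of N469 brain, and ran from 4.80 to 108 CPM (median 20.6). The library at 108 CPM raised that share, which is not given without it. The log2 fold change of Snora41 was 1.50 ± 0.30 (adjusted p = 1.80e-05, edgeR), although its range overlapped with bone marrow (9.92 to 21.9). Snora30 was also higher (1.13 ± 0.21), at 1.69 to 12.3 CPM. Snora73a was lower (-2.45 ± 0.47, adjusted p = 8.82e-06, edgeR), at 0 to 1.07 CPM, as was Snora17 (-2.34 ± 0.52, adjusted p = 9.20e-05), at 0 to 7.20 CPM against 19.9 to 113 in bone marrow. Snora69, Snora74a, Snora78 and Snora57 were the other 4 lower. In animals 11 to 14 Snora41 held 65.4% of the brain Snora counts, and 39.2% without the library of animal 14. Its brain log2 fold change of 0.64 there was not called.

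Snora35 was found in 2 tissues. It lies in the serotonin receptor gene Htr2c and has no assigned target in ribosomal RNA. Its 73 counts fell in brain and lung only. In N469 brain, 9 of 10 libraries had a count and the median was 1.07 CPM (0 to 1.88), and all other tissues of that pool were at 0. In lung, Snora35 had a median of 0.0962 CPM in N467 (0 to 0.404, 7 of 9 libraries with a count) and 0.0401, 0.111, 0.0603 and 0.0411 CPM in N541, each 1 to 3 counts. The 4 brain libraries of N541 were at 0. They held 292 Snora counts in all. The row did not pass the filter, and no test was made.

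In intestine, 8 of 14 members were higher and 0 lower (30.5% and 25.3% of all genes), while C/D box rows had 4 of 42 higher and 8 lower. The largest were Snora73a (2.83 ± 0.32, adjusted p = 6.05e-11, edgeR), Snora74a (2.42 ± 0.37) and Snora78 (2.06 ± 0.35). Snora73a had 0.259 to 6.76 CPM (median 4.09) in intestine against at most 1.45 in brain, heart and muscle. The unscaled levels of several others were close, with a Snora62 mean of 5.56 CPM in intestine and 6.55 elsewhere, and Snora73b means of 4.25 and 4.22. With unscaled totals 4 of the 8 were called (Snora17, Snora73a, Snora74a and Snora78), and 2 members were called lower. The tRNA share of these libraries is given above, and its part in the calls was not tested.

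Heart and muscle had few calls, none of them higher. In heart 0 were higher and 2 lower (16.2% and 24.9% of all genes): Snora73a (-1.87 ± 0.50), at 0 to 0.636 CPM, and Snora62 (-1.22 ± 0.34), at 0.172 to 4.17. In muscle 0 were higher and 3 lower (18.1% and 21.5%): Snora73b (-1.29), Snora69 (-1.17) and Snora47 (-1.09). In both tissues these calls held under all 4 scalings, but with the animal as a block Snora47 in muscle was no longer called (-0.94), and without the intestine libraries 0 members were called lower in muscle.

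The 2 animal sets could be compared over the same 5 tissues. Of the 57 calls in animals 1 to 10, 37 concerned members also tested in N541. The sign was the same in 27 of the 37, and 11 were called the same way. These were Snora73a and Snora21 higher in spleen, Snora73a, Snora73b, Snora62 and Snora74a higher in bone marrow, Snora17 higher in intestine, Snora17 and Snora74a lower in brain, Snora62 lower in heart and Snora41 lower in kidney. For Snora21 in spleen the values were 22.2 to 159 CPM (median 56.8) in N467 and 9.46, 8.95, 12.4 and 10.3 CPM in N541. For Snora17 in N469 intestine they were 2.39 to 91.9 CPM, with a median of 8.49 and a mean of 18.7. That median was below those of heart (11.3) and bone marrow (26.7) in the same pool. The 2 intestine libraries of N541 had 9.17 and 19.3 CPM of Snora17, from 34 counts in all. A call missing in N541 does not show a difference between the sets, which was not tested, as that pool has 2 to 4 libraries per tissue and few Snora counts in some (1 to 7 in pancreas, 2 to 29 in kidney, 13 to 89 in liver). In liver, neither of the 2 calls testable there kept its sign. The shares of all genes that kept their sign or call between the animal sets are not given. Whether Snora rows held better or worse than other genes is therefore not shown.

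**Figure D5:**
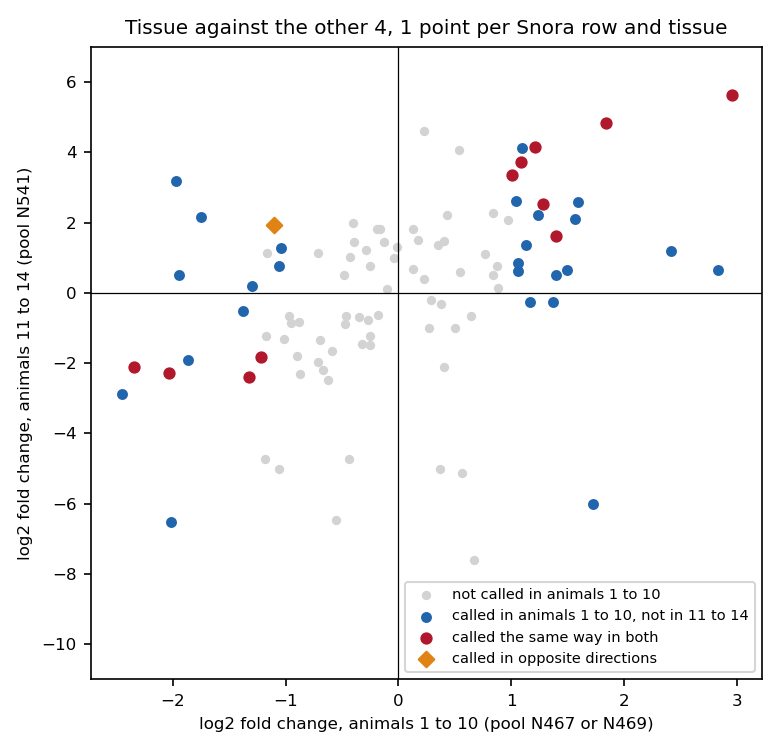
Log2 fold change of a tissue against the other 4 of its pool in animals 1 to 10 (horizontal) and over the same tissues in animals 11 to 14 (vertical), 1 point per Snora row and tissue tested in both, 100 points. Of these, 67 have the same sign, the 11 called the same way in both (red) include Snora73a in spleen at the upper right, and the single diamond called in opposite directions is Snora30 in bone marrow. The share of all genes with the same sign is not given.

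The 3 libraries labelled testis were compared with the 10 tissues of N541. Of 12 members tested, 6 were higher and 0 lower, beside 26.8% and 6.12% of all genes, and 34 of 42 C/D box rows were higher. The 6 were Snora73a (3.33 ± 0.78, at 3.05, 2.82 and 1.88 CPM), Snora73b (2.81), Snora23 (2.73), Snora21 (1.76), Snora41 (1.48) and Snora31 (1.08), with a median over the 12 of 1.32 against 0.60 for all genes. Their mean levels were close to those of the other tissues before scaling, for example 2.58 against 2.33 CPM for Snora73a. With unscaled totals 2 were called higher, and with the Snord total as library size 0 were higher and 4 lower, with the signs of Snora41, Snora21 and Snora31 turned. The labels of these libraries go against their markers, as given above.

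Snora34 differed in level between pools. It lies in an intron of Kansl2 and had 292 counts in N467, 720 in N469 and 5 in N541, or 0.801, 2.27 and 0.0163 CPM over each pool. Mir1291, nested within it, had 3.85, 3.90 and 3.76 CPM in the same pools. Snora2b, also within Kansl2, had 0.329, 0.114 and 0.0196 CPM. Snora34 was too low to be tested in N541, and between N541 and the other pools sex, animals and pool cannot be told apart. N467 and N469 hold the same animals but different tissues, so between them tissue and pool cannot be told apart. Within tissues of N469 the level of Snora34 also differed between libraries, as given under other observations. The animals with high levels were not the same in every tissue.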

How the data were processed

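Small RNA of 11 tissues was sequenced with a small RNA kit that ligates adapters to both ends, per the labels' protocols. The authors deposited whole-number read counts per small RNA gene for each library, not normalized. The aligner STAR (2.5.1), the counter featureCounts and the build mm10, which is GRCm38, are named per the submitters' processing notes. The treatment of strand, of reads with several matches and of overlapping genes is not given in the sources used here, and overlaps were computed from GENCODE gene models.

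Counts were divided by each library's total for CPM. A column was tied to a sample by its name for 131 libraries, and 3 testis columns to their group only. Of 139 listed samples, 5 were not analysed here. Depth limits shallow libraries, and a count of 0 allows up to 3 counts.

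Tests used edgeR 4.0.16 (quasi-likelihood F test, TMM scaling, a minimum count of 10 in edgeR's filterByExpr, grouped by tissue) in R 4.3.3, 1 fit per pool over all genes, with Benjamini-Hochberg adjustment over all genes tested. The alternatives were DESeq2 1.42.0 (size factors, and its test), unscaled totals, the Snord total as library size, no filter, the animal as a block, leaving out shallow libraries, pancreas or intestine, and the same tissues in N541. Leaving out each N541 library in turn applied to the tests in that pool, and leaving out the library labelled Pancreas 11 was chosen after seeing the data. The scripts were tested on simulated data.

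Named genes were those with the 12 largest summed counts, the 5 smallest p-values per pool, up to 3 called in each direction per contrast and a short list of well-known members. Snora15, Snora19, Snora2b, Snora36b and Snora43 were named to account for every counted row. This set of members and the lists were put forward with earlier results of these data known, although the rule itself reads no value.

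Equal replicate numbers are the same animal, per the labels, so libraries of an animal are paired. Libraries of an animal deviated together with a median correlation of 0.13 in N467, 0.44 in N469 and -0.01 in N541. The sequence of 1 member is not reported here.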

Additional observations from a re-analysis of the deposited data

Results flagged for a closer look

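Dixon's criterion was applied 34 times, to the summed Snora level or the Snora to Snord ratio of a tissue and pool. In 4 of these the highest library lay far from the rest, where chance gives about 1 in 20 for a single check. Both measures use the Snora counts, so the checks are not independent and the 4 cannot be weighed against that rate. The summed Snora level of the kidney library of animal 2 was 42.7 CPM, and the next of the 10 kidney libraries had 29.8. The bone marrow library of animal 2 had 14.9 Snora counts per 1000 Snord counts, and the next of 9 had 8.35. In N541 the liver library of animal 13 had a ratio of 4.23 with the next at 2.37, and the muscle library of animal 13 had 0.816 with the next at 0.315. What set these libraries apart was not tested.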

How the results depend on the processing

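The member counts below are given without the share of all genes called in the same setting. They describe how the calls moved and are not results about Snora rows as against other genes. With DESeq2 size factors, lung lower went to 1, bone marrow higher to 3 and brain higher to 1. With the DESeq2 test, lung had 0 higher and 1 lower, pancreas 2 lower, bone marrow 3 higher and brain 1 higher. With the Snord total as library size, kidney had 3 higher and 0 lower, liver 0 and 5, lung 4 and 0, bone marrow 1 and 3, and the libraries labelled testis 0 and 4, while pancreas had 1 higher, spleen 4 higher and muscle 5 lower. With unscaled library totals, kidney had 14 lower, liver 1 higher, pancreas 5 higher and 2 lower, spleen 0 lower, bone marrow 11 higher and 0 lower, brain 2 lower, heart 4 lower, intestine 4 higher and 2 lower, muscle 7 lower and the libraries labelled testis 2 higher. Unscaled totals moved the median log2 fold change of all genes too, by -1.35 in kidney and 1.175 in bone marrow. With no filter on low counts, 20 members differed among tissues in N469, liver had 1 higher and 1 lower, lung 2 and 1, bone marrow 0 lower, brain 1 higher and 11 lower, and intestine 16 higher. Without libraries under 100000 counts, lung had 1 lower. With the animal as a replicate block, liver had 1 higher and 1 lower, and no other count moved by over 1.5 times. The block lost 4 calls in N467 (Snora69 in kidney and liver, Snora74a in liver, Snora21 in spleen), 2 in N469 (Snora74a in bone marrow, Snora47 in muscle) and 1 in N541 (Snora31 in kidney), and gained 0, 2 and 6, and 1 in the libraries labelled testis. Without pancreas, kidney had 1 higher and 5 lower, liver 1 and 1, and lung 0 and 0. Without intestine, heart had 1 higher and muscle 0 lower. Over the same tissues in N541, liver had 1 higher and 0 lower, lung 1 lower, pancreas 1 and 0, spleen 2 and 0, bone marrow 0 lower, brain 0 higher, heart 1 and 1, intestine 1 higher, and muscle 1 and 0. Counting all Snord rows of any class took the testis ratio to 0.183.

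Single log2 fold changes that turned sign were, with the Snord total as library size, Snora21 (0.0042) and Snora69 (0.048) in kidney, and with unscaled totals Snora30 in bone marrow (0.061). In N541 they were Snora21 in kidney (0.76) and lung (1.28), Snora73a (3.17) and Snora74a (2.16) in liver, Snora74a (-6.02) and Snora17 (0.52) in pancreas, Snora30 in bone marrow (1.94), Snora73b in muscle (0.20) and intestine (-0.26) and Snora17 in spleen (-0.25). The causes were not tested. Leaving out 1 library at a time gave 9 to 16 members differing in N541, 4 to 7 higher in the libraries labelled testis and 0 to 0 lower. Without the library labelled Pancreas 11, calls in N541 went from 23 to 27 against the other 9 tissues and from 24 to 27 against the other 4. Depth limits pancreas most.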

Other observations

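For Snora34 the libraries of brain and bone marrow in N469 split into high and low ones. Those of heart and intestine did so at lower levels. The animals on the high side were not the same in every tissue. Mir1291, which lies inside Snora34, split alike in brain and heart, less clearly in bone marrow, and overlapped in intestine. In brain the libraries of animals 6 to 9 had 10.2, 7.77, 7.91 and 11.0 CPM of Snora34, and the other 6 had at most 0.198. Mir1291 in the same 4 libraries had 12.8, 8.05, 7.03 and 13.7 CPM, and 1.63 to 4.45 in the other 6. The brain library of animal 10 had 0 counts of Snora34, which allows up to 5.06 CPM at its depth. In bone marrow the libraries of animals 5 to 9 had 9.93 to 15.6 CPM of Snora34 and those of animals 1 to 4 at most 0.707. Mir1291 had 11.9 to 15 CPM in animals 5 to 9 there. It had 10.6 CPM in animal 2 and 4.19 to 4.9 in animals 1, 3 and 4. In heart, animals 6 to 9 had 1.79 to 4.81 CPM of Snora34 and animals 1 to 5 at most 0.266. Mir1291 had 2.19 to 4.7 CPM in the former and 1.27 to 1.99 in the latter. In intestine, animals 7 to 10 had 1.41 to 4.66 CPM of Snora34 and animals 1 to 6 at most 0.581. Mir1291 had 2.14 to 4.14 CPM in the former and 0.17 to 2.49 in the latter. In muscle, animals 7 and 10 had 2.80 and 2.69 CPM of Snora34 and the others at most 0.954. In N467, Snora34 ran from 0 to 0.483 CPM in kidney and from 0 to 6.13 in spleen, where animals 1 and 4 were highest and animal 6 was at 0. The split was noticed in the data, the labels give no group that matches it, and its cause was not tested.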
